A study of Mus musculus with 69 samples.

Results

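Complement is a set of plasma and membrane proteins that tag particles for uptake and call in leukocytes, and 9 of its genes were followed here through bone marrow-derived macrophages (BMDMs) treated with interleukin-4 (IL-4). They were C1qa, C1qb and C1qc, the chains of C1q; C3, the protein on which all complement pathways converge; Cfb (factor B) and Cfp (properdin), which build and steady the alternative pathway convertase; C3ar1 and C5ar1, the receptors for the anaphylatoxins C3a and C5a; and C4b, a component of the classical and lectin pathways. The genes were chosen by symbol, and all 9 were among the 24537 genes listed. BMDMs are macrophages grown from marrow with M-CSF, here from young adult female mice and left untreated (basal) or treated with 20 ng/ml IL-4. The 5 strain table held 29 libraries of basal cells and cells after 24 h of IL-4. Its mice were SPRET/EiJ (SPRET), PWK/PhJ (PWK), BALB/cJ (BALB), C57BL/6J (C57) and NOD/ShiLtJ (NOD), with 3 libraries per group except for 2 basal PWK libraries. A time course of 16 libraries held basal cells and cells after 1, 6 and 24 h of IL-4 from C57 and SPRET, and a further 16 libraries held the same times in Egr2 fl/fl (Egr2WT) and LyzM-Cre Egr2 fl/fl (Egr2MKO) cells, with 2 libraries per group. LyzM drives Cre in myeloid cells, so Egr2 was deleted in that lineage, and the Egr2WT cells carried the floxed alleles without Cre. Another 8 libraries came from F1 hybrids of C57 with NOD or SPRET, basal and after 24 h of IL-4, with 2 libraries per group and expression given per parental allele.

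IL-4 moves macrophages toward a state of tissue repair through STAT6, and EGR2 is a transcription factor induced on that path. C1q recognizes immune complexes, dying cells and microbes and starts the classical pathway; macrophages are a main source of it, in contrast to most complement proteins, which come from the liver. C3 is cleaved by convertases to C3b, which coats targets, and C3a; factor B supplies the protease of the alternative convertase, and properdin, carried on the X chromosome, holds that enzyme together. C3a and C5a signal through the G protein-coupled receptors encoded by C3ar1 and C5ar1.

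Levels are in TPM, the share of a library's transcripts scaled by gene length, so that genes can be compared. Differences are log2 differences of TPM + 1 with their standard errors (SE), and "passed" means an adjusted p under 0.05 by limma with Benjamini-Hochberg adjustment over all tested genes of a table (11907, 12088 and 12079 genes in the 5 strain, time course and Egr2 tables). Tag totals per library, in units of 1000 tags, were 7024 to 22494 in the 5 strain table, 5703 to 23999 in the time course and 4687 to 32872 in the Egr2 table. Egr2 itself was at 0.854 to 7.05 TPM in Egr2MKO libraries and 21.3 to 101 TPM in Egr2WT libraries. Of 8 macrophage markers, every library of all 3 tables held high levels (summed 11020.4 to 54480 TPM), but single markers were near 0 in single strains, among them Fcgr1 in SPRET. Bulk RNA cannot tell fewer expressing cells from less RNA per cell, and the p-values measure the spread between libraries, which the study describes as biological replicates.

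The C1q genes sit together. In the files' mm10 coordinates C1qb is at chr4:136880145-136886177, C1qc at chr4:136889802-136892914 and C1qa at chr4:136895916-136898844, all on the minus strand. C3 is at chr17:57203967-57228136, Cfb at chr17:34856374-34862514, C4b at chr17:34728381-34743897, C3ar1 at chr6:122847140-122856157, C5ar1 at chr7:16246745-16259338 and Cfp at chrX:20925454-20931555, again on the minus strand. Cfb starts just past the end of C2 on the same strand, and C4b has a near-identical copy, C4a, on the same chromosome, so reads of these genes could be shared and their levels are less certain. RefSeq windows (GRCm38.p6) of 250 bases before the start site were read for the 6 members that had one. The windows of C1qb and C1qc are printed as neighbours with the widest strain differences, and that of C5ar1 for the strongest response to IL-4. Capitals mark AGGAAGT, a motif of the macrophage factor PU.1 and other ETS proteins, here on the opposite strand.
C1qb (chr4:136886201-136886450, minus strand): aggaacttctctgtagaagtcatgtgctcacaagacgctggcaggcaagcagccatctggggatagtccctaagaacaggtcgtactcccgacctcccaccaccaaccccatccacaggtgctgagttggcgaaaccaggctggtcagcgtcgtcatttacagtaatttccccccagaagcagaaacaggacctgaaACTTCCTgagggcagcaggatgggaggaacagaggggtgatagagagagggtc
C1qc (chr4:136892915-136893164, minus strand): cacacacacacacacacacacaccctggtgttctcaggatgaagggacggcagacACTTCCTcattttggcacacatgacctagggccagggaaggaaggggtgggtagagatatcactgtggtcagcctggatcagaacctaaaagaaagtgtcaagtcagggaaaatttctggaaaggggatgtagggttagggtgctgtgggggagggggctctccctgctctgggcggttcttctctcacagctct
C5ar1 (chr7:16259339-16259588, minus strand): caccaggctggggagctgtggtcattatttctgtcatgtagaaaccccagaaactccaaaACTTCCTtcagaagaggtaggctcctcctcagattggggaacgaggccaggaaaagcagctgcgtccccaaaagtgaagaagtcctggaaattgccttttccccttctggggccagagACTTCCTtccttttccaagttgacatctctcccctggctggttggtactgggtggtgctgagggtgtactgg
The match lies at -53 to -47 from the start site in C1qb, at -195 to -189 in C1qc, and at -190 to -184 and -72 to -66 in C5ar1. Searched on both strands, AGGAAGT was in 3 of 6 member windows and in 7.69% of 32851 mouse windows of the same length. The STAT6 motif, TTC and GAA with 4 bases between them, was in 0 of 6 member windows (5.85% of all), the EGR motif GCGNGGGCG in 0 (4.7%), the AP-1 motif TGANTCA in 1, C3ar1 (6.75%), and the C/EBP motif TTGCNNAA in 1, C3 (9.56%). A motif of IRF proteins, GAAA and GAAA with 2 bases between them, and TGCTGAC, of MAF proteins, were in 0 of 6 (2.98% and 3.81% of all). These are matches of letters in short windows, and the letters were chosen after the windows had been seen.

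The C1q chains were among the abundant transcripts of basal C57 cells and fell away through the other strains, down to a few TPM in SPRET. C1qb, the B chain, was at 1179, 1161 and 1201 TPM in the 3 basal C57 libraries, at 84.9, 90.6 and 89.1 TPM in BALB and at 81.7, 82.1 and 87.4 TPM in NOD. It was at 9.48 and 13.6 TPM in PWK and at 3.67, 4.83 and 2.92 TPM in SPRET. No C57 library overlapped those of any other strain, and the BALB and NOD ranges met. C1qa, the A chain, was at 399.7, 410.1 and 419 TPM in C57, 80.6, 99.8 and 94.9 TPM in BALB, 70.5, 78.5 and 77.1 TPM in NOD, 12.4 and 14.2 TPM in PWK and 1.16, 2.40 and 2.07 TPM in SPRET. C1qc, the C chain, was at 626, 616 and 615 TPM in C57, 112, 134 and 132 TPM in BALB, 142, 140.3 and 144 TPM in NOD, 24.9 and 28.8 TPM in PWK and 2.05, 3.05 and 2.88 TPM in SPRET. All 3 chains kept the same steps: C57 highest, BALB and NOD next, then PWK, then SPRET.

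**Figure D1:**
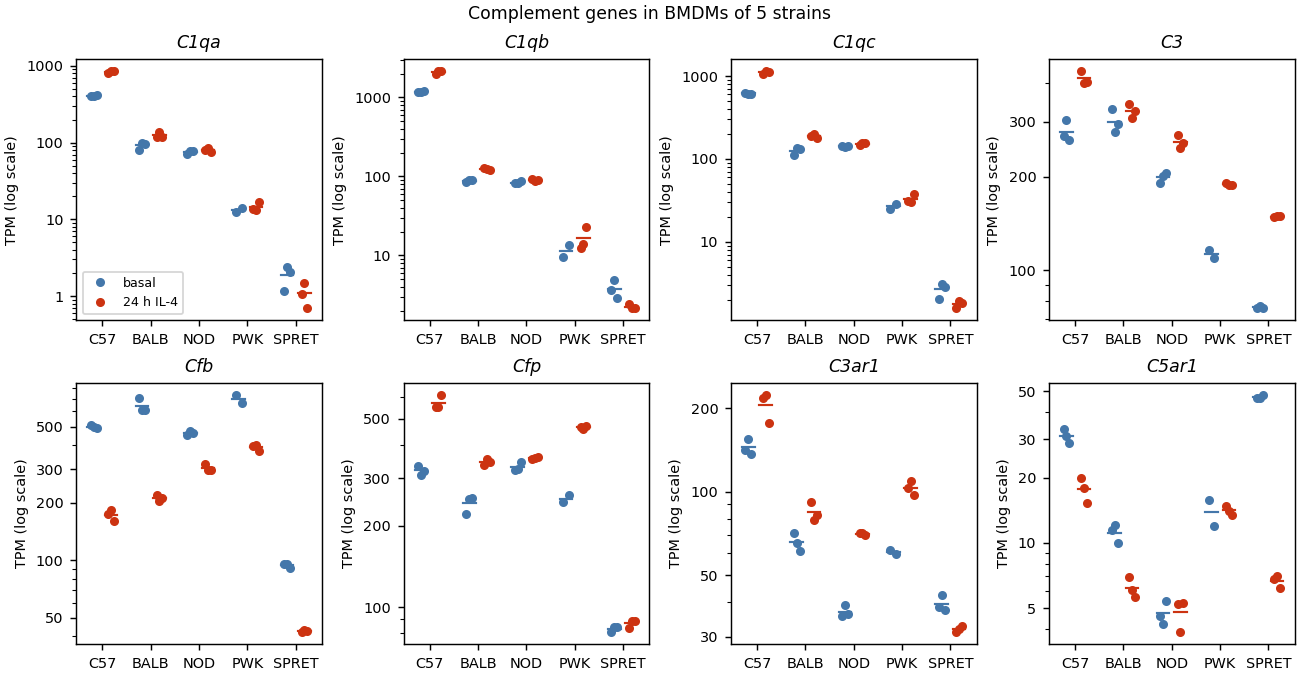
Level of the 8 members other than C4b (TPM, log axis) in each library of the 5 strain table, by strain, with basal libraries and libraries after 24 h of IL-4 as separate points and bars at the group means. The C1q chains span 218-fold to 310.0-fold between the basal C57 and SPRET means, against 3.91-fold to 9.95-fold from the highest to the lowest strain for C3, Cfb, Cfp, C3ar1 and C5ar1.

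Against C57, basal C1qb was lower by -7.96 (SE 0.14) in SPRET, -6.58 (SE 0.16) in PWK and -3.73 (SE 0.14) in BALB on the log2 scale, with limma adjusted p from 1.7e-24 to 7.8e-17. C1qa was lower by -7.18, -4.84 and -2.15 and C1qc by -7.42, -4.48 and -2.29 in the same order, with -2.43 and -2.12 in NOD, and all passed. BALB and NOD were the only neighbours in the order that were not separated, with NOD minus BALB at -0.28 for C1qa, -0.07 for C1qb and 0.17 for C1qc (adjusted p 0.058, 0.65 and 0.089). PWK lay below NOD by -2.42, -2.78 and -2.36 and SPRET below PWK by -2.34, -1.38 and -2.94 for C1qa, C1qb and C1qc, and each passed. After IL-4 the chains were lower in NOD than in BALB as well, by -0.63, -0.45 and -0.30, each of which passed.

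The chains were also not in one proportion. The ratio of C1qb to C1qa in TPM was 2.88 in basal C57 and 2.08 in SPRET, where the libraries differed widely, but 1.11 in NOD, 0.965 in BALB and 0.853 in PWK. C57 cells of the time course gave 3.30 and basal Egr2WT cells 5.15. The ratio of C1qc to C1qa moved less between the strains, from 1.38 in BALB to 2.01 in PWK under basal conditions (1.51 in C57), but it was 2.45 in basal C57 cells of the time course and 3.81 in basal Egr2WT cells. These ratios are given without a test.

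The other members differed less between strains. Over the 4 strains all tested members, C1q chains included, were lower than in C57 in 26 of 32 basal comparisons and higher in 3. The C1q chains were lower in each strain, and they are part of all counts and medians that follow here. C4b was left out because it did not reach 1 TPM in 2 libraries. By strain, 6 of 8 members were lower and 1 higher in BALB, 6 lower and 0 higher in NOD, and 7 lower and 1 higher in both PWK and SPRET. The NOD count takes C3 as lower, and with it the total over the strains. Basal C3, Cfb and Cfp in NOD depended on scaling, as given below. Among all tested genes 18.4%, 54.1%, 41.5% and 32.9% were lower in BALB, NOD, PWK and SPRET, and 24.8%, 20.1%, 19.7% and 35.5% were higher. The members' median was -2.17 in SPRET, -2.03 in NOD and -1.26 in both BALB and PWK, beside 0.02, -0.30, 0.04 and -0.16 over all genes. After IL-4, 29 of 32 comparisons were lower and 3 higher: 7 of 8 members were lower in each of BALB, NOD and PWK and 8 of 8 in SPRET, against 24.1%, 42%, 33.1% and 26.6% of all genes. Cfb was the member that was higher after IL-4 in BALB, NOD and PWK (0.29, 0.81 and 1.17), where 20.3%, 24.7% and 28.5% of all genes were higher, as were 46.8% in SPRET. The 4 strains were all compared with the same C57 libraries, so their differences are not independent.

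C3, the common substrate, was at 269, 305 and 262 TPM in basal C57, 329, 278 and 294 TPM in BALB, 191, 201 and 205 TPM in NOD, 117 and 109.8 TPM in PWK and 75.5, 77.1 and 75.9 TPM in SPRET. BALB and C57 overlapped (0.11, adjusted p 0.15), while SPRET was lower than C57 by -1.85 (SE 0.06, adjusted p 1.5e-19) and PWK by -1.29 (SE 0.06). Cfb had another order: 735 and 663 TPM in PWK, 707, 613 and 609.8 TPM in BALB, 509.8, 499 and 493 TPM in C57, 451, 472 and 464 TPM in NOD, and only 95.9, 95.6 and 91.2 TPM in SPRET. PWK and BALB did not differ beyond their spread (0.12, adjusted p 0.077) and both were above C57 (0.48 and 0.36, passed), while SPRET was lower than C57 by -2.40 (SE 0.05, adjusted p 1.4e-22). Cfp was at 335, 309 and 319.8 TPM in C57, 322, 325 and 345 TPM in NOD, 245 and 261 TPM in PWK, 221, 252 and 254 TPM in BALB and 80.7, 84.1 and 84.4 TPM in SPRET. Neither NOD and C57 (0.04, adjusted p 0.45) nor PWK and BALB (0.06, adjusted p 0.34) were separated for Cfp, and SPRET was lower than C57 by -1.94 (SE 0.05).

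The NOD values of these genes depended on scaling, because the median of all genes was -0.30 in NOD minus C57. With libraries rescaled by median ratios, basal C3 in NOD minus C57 was -0.08 (adjusted p 0.084) in place of -0.48, Cfb 0.29 (adjusted p 3.7e-07) in place of -0.11, and Cfp 0.45 (adjusted p 1.0e-05) in place of 0.04. Cfp in PWK minus C57 was then -0.14 (adjusted p 0.16) in place of -0.35. The direction for C3 and Cfb in NOD is therefore not given here as a result.

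The receptors split. C3ar1 was highest in C57 (141, 155 and 137 TPM), followed by BALB (71.1, 65.3 and 61.2 TPM), PWK (61.9 and 59.8 TPM), SPRET (38.4, 42.4 and 37.5 TPM) and NOD (35.7, 39.1 and 36.2 TPM). BALB and PWK (-0.11, adjusted p 0.26) and SPRET and NOD (0.09, adjusted p 0.28) overlapped, and each of the 4 strains was below C57 by -1.12 to -1.94 and passed. C5ar1 was instead highest in SPRET, at 46.4, 46.4 and 48.3 TPM against 33.6, 31.1 and 28.9 TPM in C57, a difference of 0.58 (SE 0.11, adjusted p 5.3e-05). It was at 15.8 and 12.0 TPM in PWK, 11.4, 12.0 and 10.0 TPM in BALB and 4.58, 4.23 and 5.38 TPM in NOD, so that basal SPRET was 9.95-fold above NOD. PWK minus BALB was 0.28 (adjusted p 0.045) with libraries that overlapped.

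Markers of other cell types also differed between strains. The summed level of 8 neutrophil markers was 552 to 558 TPM in basal PWK and 344 to 404 TPM in basal SPRET, against 106 to 131 TPM in C57, 53.0 to 59.97 TPM in BALB and 40.9 to 52.7 TPM in NOD. Most of that sum was S100a8, with S100a9 in PWK, while the means of Ly6g, Mpo and Elane were below 1 TPM in every strain. The summed level of 6 fibroblast markers was 204 to 212 TPM in basal PWK and 3.27 to 16.7 TPM in the other basal groups, nearly all of it Dcn, and the collagen genes Col1a1, Col1a2 and Col3a1 were below 1 TPM in PWK too. The summed macrophage list was 11457.4 to 11699.7 TPM in basal PWK and 19020.2 to 30790 TPM in the other basal groups. Their part in the strain differences of complement genes was not tested.

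After 24 h of IL-4, C1q rose in C57 and BALB, did not pass in NOD, and fell in SPRET. In C57, C1qa went from 399.7, 410.1 and 419 TPM to 817, 858 and 858 TPM (1.04, SE 0.13, limma adjusted p 4.4e-07). C1qb went to 1989, 2127 and 2157 TPM (0.82, SE 0.14, adjusted p 5.7e-05) and C1qc to 1057, 1154 and 1130.2 TPM (0.85, SE 0.09, adjusted p 3.1e-08). No treated library of C57 overlapped a basal one. In BALB, C1qa after IL-4 was at 119, 136 and 118 TPM, C1qb at 129, 125 and 119.9 TPM and C1qc at 189, 198 and 179.8 TPM, rises of 0.44, 0.49 and 0.58 that passed. The BALB rise of C1qa was no longer called without BALB basal replicate 1 (0.35, adjusted p 0.084) or BALB IL-4 replicate 2 (0.37, adjusted p 0.068). In NOD the 3 chains were at 0.08, 0.12 and 0.11 with adjusted p from 0.37 to 0.66, about the median of all genes there, 0.12.

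PWK and SPRET held far less C1q. In PWK, C1qb after IL-4 was at 12.5, 13.8 and 23.0 TPM and rose by 0.45 (SE 0.16, adjusted p 0.042), but its libraries overlapped the basal ones. The call was lost without PWK IL-4 replicate 3 (0.20, adjusted p 0.28) or PWK basal replicate 1 (0.21, adjusted p 0.49), and without PWK basal replicate 2 the value was 0.69. C1qa and C1qc in PWK were at 0.11 and 0.27 (adjusted p 0.63 and 0.053). In SPRET, C1qb was at 2.46, 2.14 and 2.16 TPM and C1qc at 1.56, 1.94 and 1.80 TPM after IL-4, falls of -0.55 (adjusted p 0.0032) and -0.39 (adjusted p 0.0009) with no overlap. C1qa was at 1.08, 1.48 and 0.690 TPM, overlapping its basal range, and its fall of -0.46 (adjusted p 0.0057) was not called without SPRET basal replicate 2 (-0.32, adjusted p 0.060) or SPRET IL-4 replicate 3 (-0.31, adjusted p 0.065). At levels near 1 TPM the added 1 TPM shrinks log2 differences, and the means of C1qa fell from 1.88 to 1.08 TPM. The response of SPRET minus that of C57 was -1.50 (SE 0.18, adjusted p 6.4e-07) for C1qa, -1.37 (SE 0.20) for C1qb and -1.24 (SE 0.13) for C1qc.

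The alternative pathway genes moved apart under IL-4: Cfb fell in every strain while C3 and Cfp rose in several. After IL-4 Cfb was at 396, 399 and 373 TPM in PWK, 321, 296 and 295 TPM in NOD, 219, 204 and 211 TPM in BALB, 176, 182 and 161 TPM in C57 and 42.2, 43.3 and 42.5 TPM in SPRET. Each treated group lay wholly below its basal group, with falls of -1.60 (SE 0.05) in BALB, -1.53 (SE 0.05, adjusted p 1.1e-17) in C57, -1.13 in SPRET, -0.84 in PWK and -0.61 in NOD. The fall was smaller than in C57 by 0.92 in NOD, 0.69 in PWK and 0.40 in SPRET, differences that passed, but not in BALB (-0.07, adjusted p 0.62). C3 rose by 0.96 (SE 0.06, adjusted p 5.8e-13) in SPRET, to 148, 149.7 and 149 TPM, by 0.74 in PWK, to 191, 189 and 188 TPM, by 0.57 in C57, to 436, 399 and 404 TPM, and by 0.38 in NOD, to 273, 247 and 257 TPM. In BALB, C3 was at 342, 308 and 326 TPM, overlapping basal cells (0.12, adjusted p 0.12), and relative to the BALB median of -0.11 over all genes, with median-ratio scaling, it was 0.26 (adjusted p 1.8e-05). Cfp rose by 0.83 in C57, to 553, 552 and 614 TPM, by 0.88 in PWK, to 467, 456 and 469 TPM, and by 0.51 in BALB, to 338, 354 and 344 TPM. It did not pass in NOD (353, 357 and 362 TPM; 0.11, adjusted p 0.084) or SPRET (83.5, 89.0 and 88.8 TPM; 0.07, adjusted p 0.29).

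The anaphylatoxin receptors responded in opposite directions in 2 of the strains. C3ar1 rose in C57 to 218, 224 and 176 TPM (0.50, SE 0.08), in BALB to 92.0, 79.0 and 82.5 TPM (0.35), in NOD to 71.2, 70.9 and 70.0 TPM (0.92, adjusted p 1.1e-09) and in PWK to 104, 109 and 97.3 TPM (0.75). It fell in SPRET, to 31.2, 32.1 and 32.8 TPM (-0.29, adjusted p 0.003), below all 3 basal SPRET libraries. C5ar1 fell in C57 to 19.9, 17.9 and 15.3 TPM (-0.79, SE 0.11) and in BALB to 6.94, 6.09 and 5.61 TPM (-0.75). In SPRET it dropped to 6.79, 7.01 and 6.19 TPM, a fall of -2.65 (SE 0.11, adjusted p 2.5e-16) and 7.06-fold in mean TPM. NOD (5.22, 3.88 and 5.30 TPM) and PWK (14.9, 14.0 and 13.5 TPM) overlapped their basal libraries (0.01 and 0.03, adjusted p 0.95 and 0.90). So SPRET, highest for C5ar1 before IL-4, stood below C57 by -1.28 after it (adjusted p 1.3e-10).

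In counts, 6 of 8 tested members rose and 2 fell in C57 after IL-4, where 15% of all genes rose and 20.5% fell. The counts were 5 up and 2 down in BALB (9.45% and 24.8% of all genes), 2 and 1 in NOD (28.2% and 6.07%), 4 and 1 in PWK (18.6% and 6.08%) and 1 and 6 in SPRET (31.4% and 12.9%). Median responses of the members were 0.70 in C57, 0.39 in BALB, 0.36 in PWK, 0.11 in NOD and -0.43 in SPRET, beside -0.04, -0.11, 0.08, 0.12 and 0.11 over all genes. Of the differences from the C57 response, 15 of 32 were lower and 7 higher. SPRET had 6 lower and 2 higher (8.94% and 24.4% of all genes), NOD 4 and 3 (7.32% and 26%), PWK 2 and 2 (5.58% and 16.8%) and BALB 3 and 0 (10.4% and 5.43%).

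Marker lists moved with IL-4 as well. The summed neutrophil markers were at 16.8 to 24.4 TPM in C57, 18.1 to 19.8 TPM in BALB, 15.2 to 18.9 TPM in NOD and 249 to 274 TPM in SPRET after 24 h, below all basal libraries of the same strain, and stood at 551 to 601 TPM in PWK, across the basal range. The macrophage list went from 23778 to 24524 TPM in basal C57 to 17054 to 18231 TPM, and in BALB from 29697 to 30790 TPM to 21772 to 23340.02 TPM, with smaller moves in NOD, PWK and SPRET. Fibroblast markers in PWK went down to 106 to 113 TPM, and dendritic cell markers went down in PWK (5.93 to 6.20 TPM, then 2.82 to 3.29 TPM) and up in SPRET (1.53 to 1.85 TPM, then 2.91 to 2.97 TPM). In the time course at 24 h the neutrophil sum was at 6.49 to 7.97 TPM in C57, against 66.2 to 94.3 TPM in basal cells, and in SPRET at 71.8 to 91.8 TPM against 67.8 to 73.7 TPM. C5ar1, which neutrophils also express, fell along with that sum in C57 of the time course at 24 h. In SPRET there C5ar1 fell while the sum was not lower than in basal cells. Outside the time course both fell in C57, BALB and SPRET. In NOD the sum fell while C5ar1 did not pass, and in PWK neither fell. The part of these lists in the responses was not tested.

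**Figure D2:**
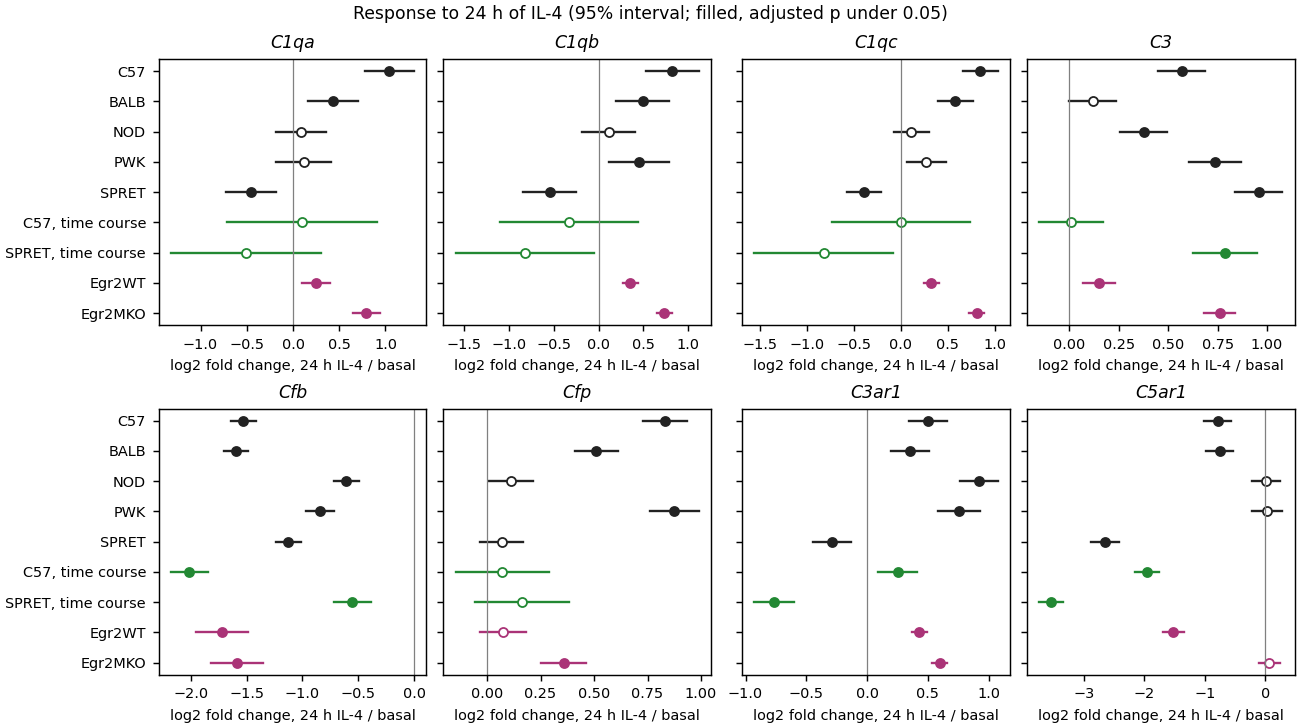
Log2 difference of TPM + 1 between 24 h of IL-4 and basal cells for the 8 tested members in the 5 strains (black), the time course (green) and the Egr2 table (purple), with bars for 95% confidence intervals and filled points where the difference passed. Cfb lies below 0 in every row, and within the 5 strains C5ar1 in SPRET is lowest at -2.65 and the C1q chains run from 1.04 in C57 to -0.55 in SPRET.

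In the time course Cfb responded late and C5ar1 early. Cfb in C57 was at 281 and 279 TPM in basal cells, 288 and 302 TPM at 1 h, 262 and 277 TPM at 6 h, and 64.8 and 72.6 TPM at 24 h, a fall of -2.01 (SE 0.08, limma adjusted p 1.1e-09) seen only at the last time (-0.05 at 6 h, adjusted p 0.69). In SPRET it was at 34.0 and 37.7 TPM in basal cells, 35.5 and 38.9 TPM at 1 h, 37.3 and 38.5 TPM at 6 h and 22.7 and 25.5 TPM at 24 h, a smaller fall of -0.55 (adjusted p 9.1e-05). C5ar1 in SPRET was at 60.4 and 61.6 TPM in basal cells, 47.7 and 37.3 TPM at 1 h, 12.0 and 12.2 TPM at 6 h and 4.28 and 4.37 TPM at 24 h. These were falls of -0.52 (adjusted p 0.0024), -2.24 and -3.54 (SE 0.09, adjusted p 4.4e-11), and the treated libraries lay below the basal ones at each time. In C57 it was at 108 and 109.6 TPM, then 88.4 and 87.9 TPM, 75.6 and 67.8 TPM, and 26.4 and 28.3 TPM (-0.30, adjusted p 0.12, at 1 h, -0.60 at 6 h and -1.96 at 24 h). The SPRET response was lower than that of C57 by -1.64 at 6 h and -1.59 at 24 h (SE 0.13 for both, adjusted p 7.6e-06 and 3.1e-06).

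C3ar1 went up and came back. In SPRET it was at 106 and 94.9 TPM in basal cells, 158 and 139 TPM at 1 h (0.56, adjusted p 0.00026), 137 and 127 TPM at 6 h (0.40, adjusted p 0.0014) and 62.0 and 55.4 TPM at 24 h (-0.76, adjusted p 5.3e-06), so a rise turned into a fall. In C57 it was at 233 and 241 TPM, 275 and 291 TPM, 361 and 369 TPM and 284 and 279 TPM, with rises of 0.62 at 6 h and 0.25 at 24 h (adjusted p 0.019). The 24 h rise was not called without C57 basal replicate 1 (0.22, adjusted p 0.099) or without either C57 24 h library (0.24 and 0.26, adjusted p 0.081 and 0.061). Cfp in SPRET was at 67.3 and 61.0 TPM, 102 and 89.2 TPM at 1 h, 123 and 117 TPM at 6 h and 79.8 and 64.6 TPM at 24 h, rising by 0.56 at 1 h and 0.90 at 6 h (adjusted p 2.1e-05), with 0.16 at 24 h (adjusted p 0.24). In C57 Cfp rose by 0.32 at 6 h alone (adjusted p 0.040), a call lost without either 6 h C57 library (adjusted p 0.12 and 0.14). The C57 call was also lost without C57 basal replicate 1 (0.23, adjusted p 0.25). C3 in SPRET was at 457 and 529.8 TPM in basal cells, 564 and 614 TPM at 6 h (0.26, adjusted p 0.019) and 842 and 859 TPM at 24 h (0.79, adjusted p 3.6e-06). Its rise at 6 h was not called without SPRET basal replicate 1 (0.15, adjusted p 0.19) or SPRET 6 h replicate 2 (0.20, adjusted p 0.15). C3 in C57 did not pass at 24 h (319 and 318 TPM against 305 and 336 TPM; 0.01, adjusted p 0.95).

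**Figure D3:**
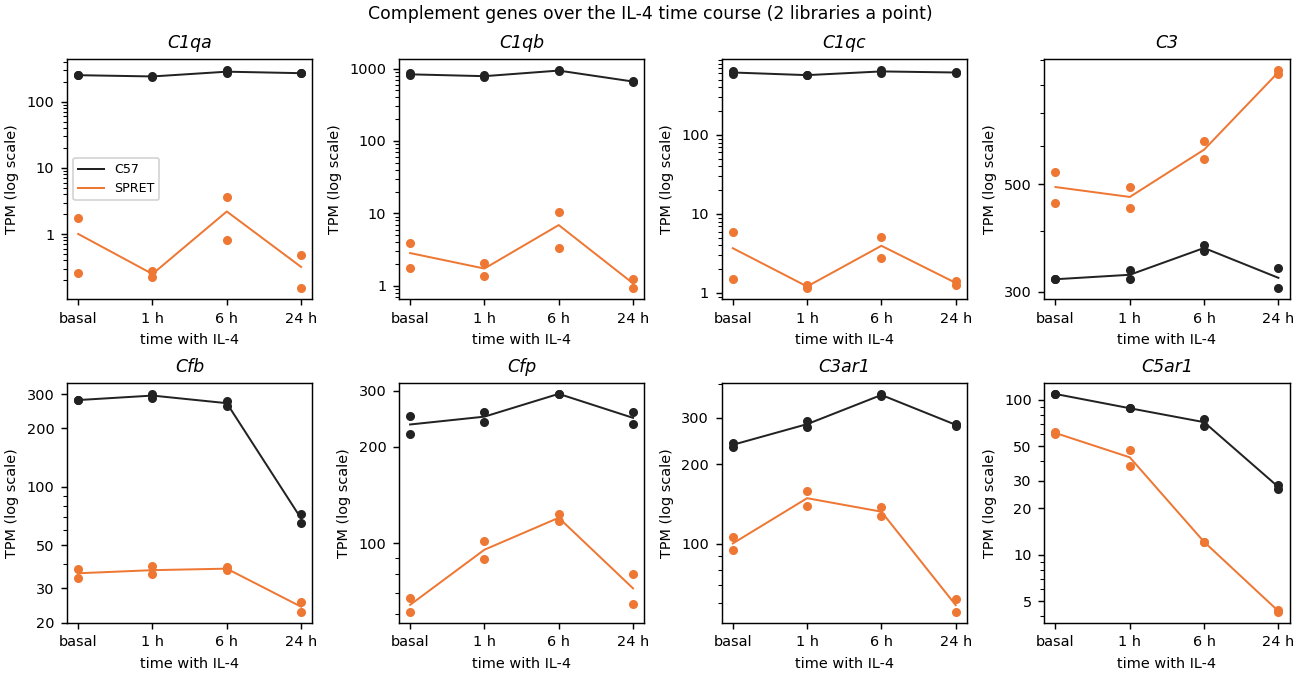
Level of the 8 tested members (TPM, log axis) in basal cells and after 1, 6 and 24 h of IL-4 in the time course, as points for single C57 and SPRET libraries joined at their means. C5ar1 in SPRET drops from 61.0 to 4.33 TPM, while Cfb in C57 drops only at 24 h, from a mean of 280 to 68.7 TPM.

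C1q did not pass at any time in either strain of the time course. In C57, C1qa was at 254 and 249.5 TPM in basal cells and 272 and 268 TPM at 24 h, C1qb at 805 and 859 TPM and then 656 and 667 TPM, and C1qc at 595 and 639 TPM and then 628 and 606 TPM. Their 24 h differences of 0.10, -0.33 and 0.00 had an SE of 0.34 to 0.37, with 95% confidence intervals of -0.71 to 0.91, -1.10 to 0.44 and -0.74 to 0.74. The C57 rises of C1qa (1.04), C1qb and C1qc in the 5 strain table each lie above the upper end of the matching interval. The difference between these experiments was not tested. The SE was wide because SPRET libraries of the same group differed: C1qc was at 5.87 and 1.50 TPM in the 2 basal SPRET libraries and C1qb at 10.5 and 3.29 TPM in those at 6 h. Without SPRET basal replicate 2 the 24 h value of C1qc in SPRET was -1.55 (adjusted p 0.00016) in place of -0.83, and without SPRET basal replicate 1 its 6 h value was 0.94 (adjusted p 0.0058) in place of 0.21. C1q was again far lower in SPRET than in C57 under basal conditions, by -7.09 for C1qa, -7.82 for C1qb and -7.22 for C1qc (SE 0.34 to 0.37, all passed).

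In counts over the time course, 9 of 48 differences from basal cells rose and 8 fell. In C57 0 of 8 passed at 1 h by limma, with 2 at an unadjusted p under 0.05 (2.73% of all genes rose and 1.22% fell), 2 rose and 1 fell at 6 h (10.9% and 9.55%), and 1 rose and 2 fell at 24 h (18.2% and 21.1%). In SPRET 2 rose and 1 fell at 1 h (4.83% and 3.92%), 3 rose and 1 fell at 6 h (16.9% and 13.7%), and 1 rose and 3 fell at 24 h (14.8% and 21.8%). SPRET was lower than C57 for 7 of 8 members and higher for 1 both in basal cells (26.4% and 34.3% of all genes) and at 24 h (30.7% and 32.7%). The responses of SPRET and C57 differed for 0 of 8 at 1 h by limma (2 at an unadjusted p under 0.05, and 1.41% and 0.91% of all genes higher and lower), for Cfp and C5ar1 at 6 h (5.85% and 5.29%), and for C3, Cfb, C3ar1 and C5ar1 at 24 h (12.8% and 16.1%).

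A pair of members changed place between the tables. C3 was lower in SPRET than in C57 in the 5 strain table, and higher in the time course, by 0.63 in basal cells and 1.41 at 24 h (adjusted p 1.1e-05 and 4.7e-09). The basal SPRET mean of C3 was 76.2 TPM in the first table and 493 TPM in the second, while the C57 means were 279 and 319 TPM. C5ar1 was higher in basal SPRET than in basal C57 in the 5 strain table and lower in the time course (-0.83, adjusted p 6.3e-06), where the C57 mean was 109 TPM against 31.2 TPM in the first table. The tables were normalized separately and hold different cultures, so these levels are set side by side with no test. The direction of C1qa, C1qb, C1qc, Cfb, Cfp and C3ar1 between SPRET and C57 was lower in both.

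Egr2MKO cells had higher levels of nearly all members than Egr2WT cells. Only the Egr2MKO cells carried LyzM-Cre, so effects of the Cre allele and of Egr2 loss cannot be told apart in these comparisons. Under basal conditions 8 of 9 members were higher in Egr2MKO than in Egr2WT cells, where 5.95% of all tested genes were higher and 5.56% lower. At 1, 6 and 24 h, 8, 9 and 8 of 9 were higher (6.04%, 11.5% and 25.9% of all genes, with 5.37%, 9.12% and 11.5% lower), so that 33 of 36 comparisons were higher and 0 lower. These counts include C4b, which entered the tested genes only through Egr2MKO libraries, so its call at 6 h gives no support. The other 8 members were higher in basal cells and at each time. The median of the members was 0.64 in basal cells, 0.67 at 1 h, 0.64 at 6 h and 1.09 at 24 h, beside 0.02, 0.01, 0.02 and 0.12 over all genes. The same 2 libraries per group serve all members, so the members are not independent of each other.

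C1qa was at 108 and 105 TPM in basal Egr2WT and 179.8 and 193 TPM in basal Egr2MKO (0.80, SE 0.07, limma adjusted p 1.6e-05), and at 134 and 120.2 TPM against 330.0 and 317 TPM at 24 h (1.34, SE 0.07, adjusted p 2.7e-08). C1qb was at 569 and 531 TPM against 849 and 868 TPM in basal cells (0.64) and 711 and 695 TPM against 1439.8 and 1419.6 TPM at 24 h (1.02, SE 0.04). C1qc was at 418 and 396 TPM against 616 and 624 TPM (0.61) and 522 and 497 TPM against 1108 and 1066 TPM at 24 h (1.09, SE 0.04). No Egr2MKO library overlapped an Egr2WT library of the same time for any chain. C1q rose under IL-4 in both genotypes at 24 h, by 0.25, 0.35 and 0.33 for C1qa, C1qb and C1qc in Egr2WT and by 0.79, 0.74 and 0.81 in Egr2MKO, and the difference of the responses passed (0.55, 0.38 and 0.48). Over all members, 5 of 9 rose and 2 fell at 24 h in Egr2WT (12% and 18.2% of all genes), and 6 rose and 1 fell in Egr2MKO (16.2% and 11.8%).

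C3 was at 220.1 and 223 TPM in basal Egr2WT and 417 and 414 TPM in basal Egr2MKO (0.90, SE 0.04). At 24 h it was at 249.97 and 242 TPM against 726 and 683 TPM (1.51, SE 0.04, limma adjusted p 1.5e-10). Its response was larger by 0.61 in Egr2MKO than in Egr2WT (limma adjusted p 1.7e-05). Cfb was at 52.4 and 45.8 TPM against 112 and 104 TPM in basal cells (1.13, SE 0.11) and 13.0 and 15.4 TPM against 34.3 and 36.3 TPM at 24 h (1.26, SE 0.11). Cfb fell as far in both genotypes within the error, by -1.72 in Egr2WT and -1.59 in Egr2MKO, with a difference of 0.13 (SE 0.15, adjusted p 0.65). Cfp was at 310.0 and 285 TPM against 422 and 419.6 TPM in basal cells (0.50) and 322 and 304 TPM against 521 and 559 TPM at 24 h (0.78, SE 0.05). C3ar1 was at 279 and 281 TPM against 462 and 456 TPM in basal cells (0.71, SE 0.03) and 375 and 379 TPM against 679 and 708 TPM at 24 h (0.88). The difference in the 24 h response was small for C3ar1 (0.17, adjusted p 0.019) and Cfp (0.28, adjusted p 0.018), and with median-ratio scaling neither passed (0.04 and 0.16, adjusted p 0.64 and 0.22). Both calls were also lost without single libraries, with adjusted p from 0.051 to 0.077 for each.

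C5ar1 was the member whose IL-4 response differed most. Egr2WT cells had 138 and 123 TPM in basal cells, 101 and 106 TPM at 1 h, 62.0 and 54.5 TPM at 6 h and 43.4 and 46.4 TPM at 24 h. Egr2MKO cells had 198 and 202 TPM, 154 and 145 TPM, 81.2 and 90.5 TPM, and then 199 and 219.9 TPM at 24 h. The fall at 6 h was alike within the error, -1.15 and -1.21 (difference -0.06, SE 0.11), and at 24 h the Egr2WT cells were at -1.52 while the Egr2MKO cells were back at 0.06 (adjusted p 0.62). The difference in response at 24 h was 1.58 (SE 0.11, adjusted p 6.3e-06), where 8.78% of all genes passed in that direction and 3.85% in the other, and the level was 4.66-fold higher in Egr2MKO. Of the other members, C1qa, C1qb, C1qc, C3, C3ar1 and Cfp also passed in that direction at 24 h, and 0 of 9 were lower. At 6 h only C3ar1 passed, in the other direction (-0.33, where 0.455% of all genes were higher and 0.646% lower). At 1 h 0 of 9 passed by limma, with 2 at an unadjusted p under 0.05, and 0.0166% of all genes were higher and 0% lower.

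**Figure D4:**
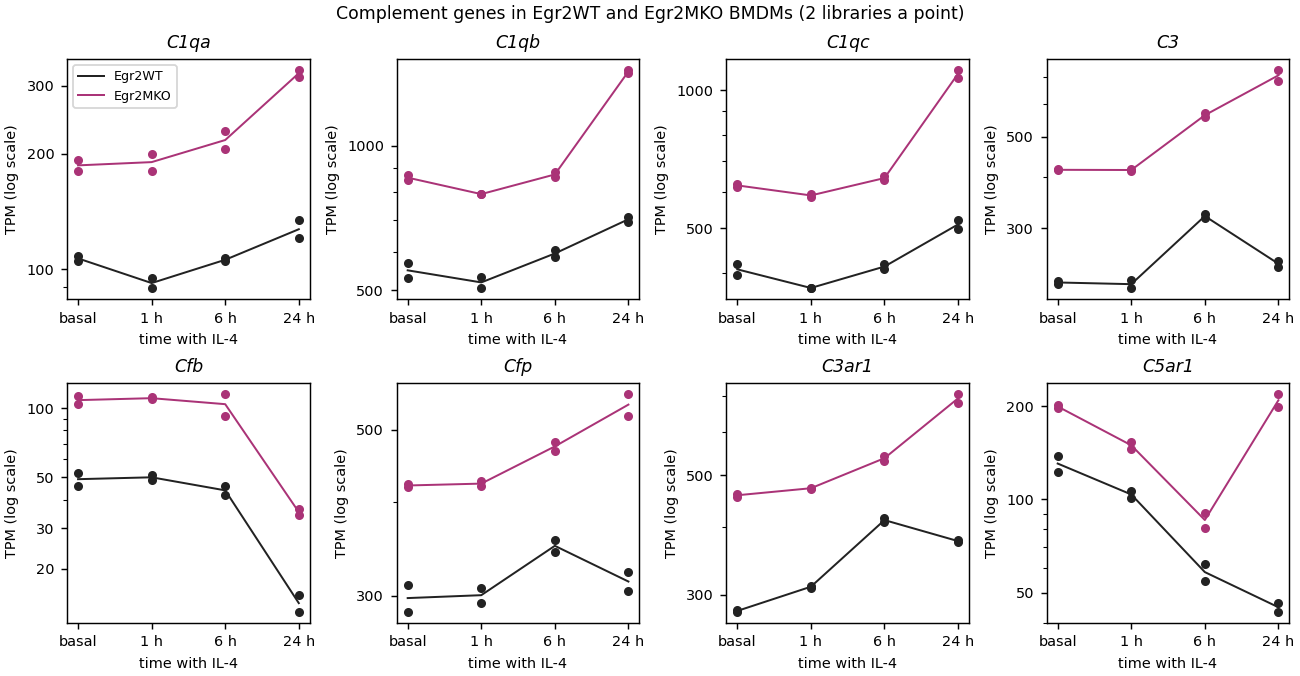
Level of the 8 tested members (TPM, log axis) in Egr2WT and Egr2MKO libraries under basal conditions and after 1, 6 and 24 h of IL-4, as points for single libraries joined at their means. C5ar1 falls in both genotypes to 6 h and is back at 199 and 219.9 TPM in Egr2MKO at 24 h.

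The summed macrophage markers ran the other way, at 21056.4 to 21118 TPM in basal Egr2MKO against 24640.5 to 26216 TPM in basal Egr2WT and 12832.4 to 13379 TPM against 15485.6 to 15721.9 TPM at 24 h, although each of the 8 genes was above 1 TPM in every group. The 8 neutrophil markers summed to 40.4 to 45.3 TPM in basal Egr2MKO against 62.5 to 66.1 TPM in basal Egr2WT, and to 10.995 to 16.3 TPM against 19.5 to 21.9 TPM at 24 h. The 6 dendritic cell markers, though low, moved the same way as the members, summing to 1.13 to 1.83 TPM in basal Egr2MKO against 0.464 to 0.556 TPM in basal Egr2WT, 1.24 to 1.25 TPM against 0.539 to 0.597 TPM at 1 h, 1.39 to 3.78 TPM against 0.860 to 1.00 TPM at 6 h and 1.68 to 2.09 TPM against 1.10 to 1.21 TPM at 24 h. The macrophage list includes Lyz2, the gene of LyzM, and only the Egr2MKO cells carried LyzM-Cre. Effects of the Cre allele and of Egr2 loss on that sum, as on the members, cannot be told apart. The part of these lists in the differences was not tested.

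C4b was hardly expressed, at no more than 0.552 TPM in the 5 strain table and 0.665 TPM in the time course. In the Egr2 table it was at 16.5 TPM in Egr2MKO 1 h replicate 1 and at 4.51 and 21.7 TPM in the 2 Egr2MKO 6 h libraries, and at no more than 0.296 TPM in the other 13. The second Egr2MKO library at 1 h had 0.155 TPM, so replicates of that group did not share the high level. C4b reached 1 TPM only in Egr2MKO libraries, so it entered the test through the group in which it was high. At 6 h Egr2MKO minus Egr2WT was 3.40 (SE 0.93, adjusted p 0.023), and without Egr2MKO 6 h replicate 2 it was 2.38 (adjusted p 0.17). It also missed the threshold without Egr2WT 6 h replicate 1 or 2 (3.39 and 3.42, adjusted p 0.080 and 0.088), and at 1 h it was 2.12 (adjusted p 0.19), or 4.09 (adjusted p 0.0018) without Egr2MKO 1 h replicate 2. Leaving out Egr2MKO 1 h replicate 1 and Egr2MKO 6 h replicate 2 together, a choice made after seeing the data, changed no call on the other members, and the difference in the 6 h response of C4b was then 2.18 (adjusted p 0.0097).

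The F1 hybrids put both alleles into one cell, and both alleles were measured in each library. In C57 x SPRET cells the C1q chains came mostly from the C57 allele. For C1qb the allele values were 226 (C57) and 16.4 (SPRET) in one basal library and 231 and 19.1 in the other, so 93.3% and 92.4% of the sum came from C57. The C57 share was 93.5% and 93.2% for C1qa and 89.7% and 88.7% for C1qc. On the log2 scale the allele difference was 3.49 for C1qa, 3.62 for C1qb and 3.02 for C1qc (limma adjusted p 0.063, 0.050 and 0.049), beside 7.18, 7.96 and 7.42 between the basal parental strains. In mean values the SPRET allele gave 7.11% of the C57 allele for C1qa, 7.75% for C1qb and 12.1% for C1qc, where SPRET cells had 0.458%, 0.323% and 0.430% of the level of C57 cells. After IL-4 the C57 share was 95.2% and 84.5% for C1qa, 90.9% and 71.4% for C1qb and 91.4% and 72.2% for C1qc. The libraries thus differed widely, and none of the chains passed (limma adjusted p 0.097 to 0.14). The lower shares came from IL-4 replicate 2. Its SPRET column had 35.3% of genes at 0, against 40.3% to 42.8% in the other columns. The part of this in the shares was not tested.

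C3 also leaned to the C57 allele, at 13.0 against 5.09 and 15.0 against 4.52 in the basal libraries (1.37, SE 0.17, adjusted p 0.020) and 24.1 against 8.15 and 24.2 against 11.3 after IL-4 (1.24, adjusted p 0.039). C3ar1 was even in basal cells, at 1398 against 1442 and 1193 against 1170.4 (-0.01, adjusted p 0.96), where the parents differed by 1.85. After IL-4 it was at 658 against 454 and 680.0 against 439 (0.58, adjusted p 0.041). Cfp was near even, with 51.8% and 53.4% from C57 in basal cells (0.15, adjusted p 0.47), and parents that differed by 1.94. C5ar1 had 41.2% and 44.3% from C57 (-0.42, adjusted p 0.074), and Cfb, at values of 1.40 to 3.17, had 55.6% and 34.0%. Of 8 tested members 3 were higher from the C57 allele in basal cells and 2 after IL-4, against 7.66% and 4.77% of all 11781 tested genes, and 0 were lower, against 8.36% and 4.08%. All 5 calls were lost without either basal library, so the shares of the single libraries are given as well. Each allele column was scaled on its own, so a share compares scaled values and is not a part of 1 measured total. With 2 libraries a group, a difference that did not pass does not show that the alleles were alike. Depth per allele is unknown, and levels of different genes were not compared in the F1 tables.

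In C57 x NOD cells the C1q chains leaned to C57 as well, with 64.5% and 77.8% for C1qa, 78.0% and 81.6% for C1qb and 72.3% and 79.6% for C1qc in basal cells (1.32, 1.99 and 1.67). The values after IL-4 were 1.08, 2.29 and 1.60, and basal NOD cells had 18.4%, 7.09% and 22.9% of the level of C57 cells for C1qa, C1qb and C1qc, where the NOD allele gave 43.8%, 25.2% and 31.4% of the C57 allele. Each library had more from C57 for each chain, but by limma 0 of the 5 tested members passed and 0 of the 5049 tested genes did (0%), so missing the threshold there says nothing about a single member, with 3 members at an unadjusted p under 0.05 in basal cells and 2 after IL-4. Here too the C57 allele of C1qa, C1qb and C1qc was lower after IL-4, with means of 193, 2486 and 2537 and then 96.6, 1682 and 1610. Means of the NOD allele were 84.4, 627 and 797 and then 42.8, 344 and 536, again with no test. C3, C3ar1, Cfp and C4b were listed at 0 for both alleles in each C57 x NOD library, and Cfb and C5ar1 at 0 in 4 and 3 of the 8 allele columns.

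**Figure D5:**
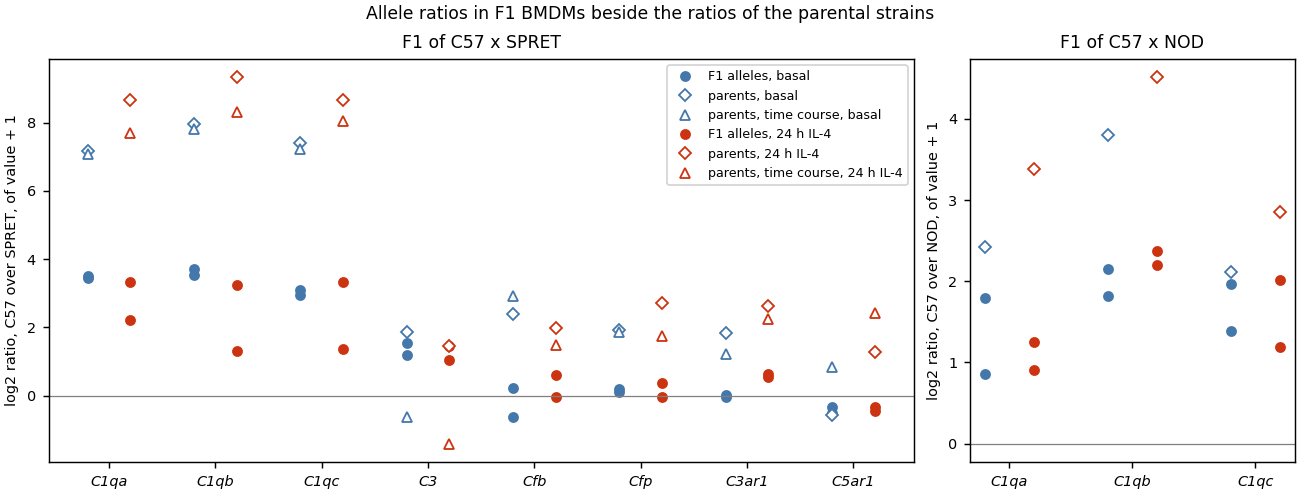
Log2 ratio of the C57 allele to the other allele in each F1 library (filled circles), basal and after 24 h of IL-4, for 8 members in C57 x SPRET and the C1q chains in C57 x NOD, beside the log2 difference between the parental strains in the 5 strain table (diamonds) and the time course (triangles). C1qa, C1qb and C1qc lie above 0 in every library of both crosses, at means of 3.02 to 3.62 in basal C57 x SPRET cells against 7.18 to 7.96 between the parents in the 5 strain table.

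Over the 10 group means of the 5 strain table, the genes most like a C1q chain were the other chains. Pearson's r of log2 levels was 0.995 between C1qa and C1qc, 0.983 between C1qa and C1qb and 0.969 between C1qb and C1qc, and next came Uchl1 (0.966 with C1qa and 0.968 with C1qb) and Gas6 (0.963 with C1qc). For C3 the nearest were Rhoc (0.955), Mrps35 and Ccl6, for C3ar1 Dhrs1 (0.932), Alas1 and Spsb4, and for C5ar1 Ptpn18 (0.906), Trim8 and Pou2f2. Cfb was nearest to Cpd (0.972), Cd38 and Smpdl3b, and Cfp to Angptl2 (0.967), Ppp2r5c and Fam132a. C5ar1 was the member least like the rest, with r from -0.34 (C3) to 0.30 (C3ar1). These are descriptions over 10 means that share libraries and strains, taken from 6942 genes.

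The wider complement system was read through 50 further genes, 26 of which were tested in the 5 strain table. After IL-4, 3 rose and 8 fell in C57 (15% and 20.5% of all genes), 2 and 8 in BALB (9.45% and 24.8%), 8 and 2 in NOD (28.2% and 6.07%), 4 and 2 in PWK (18.6% and 6.08%) and 4 and 11 in SPRET (31.4% and 12.9%). Most of these counts are near the shares of all genes, except in SPRET, where more of them fell and fewer rose. Itgax, the alpha chain of complement receptor 4, was the one that rose beyond 2-fold in each strain, by 2.79 in C57 (from 11.2 to 83.4 TPM), 3.01 in SPRET, 2.04 in BALB, 1.68 in NOD and 1.27 in PWK. C1s1, a protease of the C1 complex, fell by -2.25 in C57 (from 6.53 to 0.595 TPM), -2.02 in BALB, where its close copy C1s2 fell by -1.13, and -1.54 in SPRET, and its partner C1ra fell by -1.15 in SPRET. Clu (clusterin, a fluid-phase regulator) and Itgam (the alpha chain of complement receptor 3) fell by -1.49 and -1.25 in SPRET. In basal SPRET, Clu was at 156 TPM against 0.703 TPM in C57 (6.53) and Cr2, the C3d receptor known from B cells, at 5.96 against 0.00367 TPM (2.79). Colec12, a collectin, was higher there by 2.75, Fcna, a ficolin of the lectin pathway, was lower by -2.99 and Itgax by -1.71, and 13 of 26 genes were higher and 9 lower, beside 35.5% and 32.9% of all genes. In Egr2MKO minus Egr2WT at 24 h, 7 of 21 tested genes were higher and 7 lower, beside 25.9% and 11.5% of all genes. Itgax was at 7.04 TPM in Egr2MKO against 161 TPM in Egr2WT (-4.34, limma adjusted p 3.9e-12). Itgb2, the beta chain of both receptors, was lower by -1.23 there, and Cd55, which speeds the decay of convertases, and C5ar2, the other C5a receptor, were higher by 1.41 and 1.09.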

How the data were processed

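RNA from BMDMs was sequenced as poly(A)-enriched libraries, and the study describes its libraries as biological replicates. Per the file headers and the study's methods, the authors mapped reads with STAR to a genome made for each strain, shifted positions to mm10 with MMARGE, and counted exons with HOMER to give the deposited TPM values, one column per library without pooling. The deposited F1 TPM values are given per parental allele, each allele column scaled on its own. Values of 0 made up 78.9% to 83.6% of each C57 x NOD column and 35.3% to 42.8% of each C57 x SPRET column. Strandedness is not given in the sources used here. The tables also hold the authors' own DESeq2 comparisons (log2 fold changes with raw and adjusted p), which were not used, and a human table was not used.

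Groups came from the sample labels. Genes at 1 TPM or more in at least 2 libraries of a table were kept, log2(TPM + 1) was fitted with limma 3.58.1 (R 4.3.3), and p was adjusted over all tested genes after Benjamini and Hochberg, with an intensity trend and all groups of a table in 1 fit. For F1 libraries the difference between the alleles of a library was fitted. This scale understates the change of low genes. The procedure was tested on simulated data, where the F1 fits missed changes of a size that the fits of the other tables recovered, so an F1 difference that did not pass is not shown to be absent. Tables were normalized separately and tested only within. Alternatives were pseudocounts of 0.1 and 5 TPM, no filter or 5 TPM, median-ratio and quantile scaling, a fit of only the groups compared, a block on replicate number, a robust prior and leaving out each library. All 9 members were named throughout, at most 6 further complement genes per comparison described, by size among those changed beyond 2-fold at an adjusted p under 0.05, and other genes where their correlation with a member over group means was among the 3 highest. A further complement gene that this rule names is not reported here. The members, gene lists and tests were chosen with earlier results of these data known. Python 3.11.15 with pandas 2.3.3, numpy 2.4.6 and matplotlib 3.10.9 made the tables and plots, and promoter windows came from RefSeq (GRCm38.p6).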

Additional observations from a re-analysis of the deposited data

Results flagged for a closer look

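The IL-4 responses of some members differed between groups by a test of the difference itself, by more than 2-fold at an adjusted p under 0.05 (limma interaction contrasts). No group had enough libraries for single libraries to be tested as standing apart.

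In the 5 strain table the 24 h response of SPRET minus that of C57 was -1.50 (SE 0.18) for C1qa, -1.37 (SE 0.20) for C1qb and -1.24 (SE 0.13) for C1qc, where all 3 C57 treated libraries were above their basal libraries. For C5ar1 it was -1.86 (SE 0.16), and C5ar1 fell in both strains. For the C1q chains no response difference passed in the time course, where levels in SPRET were near the floor. The chains did not pass in C57 there either. Its means went from 252 to 270 TPM for C1qa, 832 to 661 TPM for C1qb and 617.0 to 616.9 TPM for C1qc at 24 h. In the time course the SPRET response of C5ar1 was again the lower, by -1.64 (SE 0.13) at 6 h and -1.59 (SE 0.13) at 24 h. At 24 h C3ar1 differed by -1.01 (SE 0.11) there and Cfb by 1.46 (SE 0.11), the smaller fall of Cfb being that of SPRET. In Egr2MKO the 24 h response of C5ar1 was higher than in Egr2WT by 1.58 (SE 0.11), with both Egr2MKO libraries above both Egr2WT libraries.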

How the results depend on the processing

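Of 8812 refitted values of single members, 8648 kept their direction and side of the threshold, 97 fell short of it, 66 came past it and 1 changed direction: basal Cfb in NOD minus C57, 0.29 with median-ratio scaling. That scaling also gave 5 members' differences higher than C57 in basal cells in place of 3. With only the groups compared, the time course had 4 rises in place of 9. The Egr2MKO response was then lower than that of Egr2WT for 0 members in place of 1. For F1 alleles 1 difference was higher in place of 5 with a pseudocount of 0.1 TPM, 1 was lower in place of 0 with 5 TPM, and without single libraries 0 to 5 were higher, 0 without either basal C57 x SPRET library. Without single libraries, 3 to 5 responses were lower in SPRET than in C57 over the time course, 5 without SPRET basal replicate 2. The causes were not tested.

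Same-numbered libraries of a strain or genotype had correlations of their deviations from -0.0854 to 0.333 where there were 3 pairs and from -0.1429 to 0.266 where there were 2. In no strain were all 3 pairs over 0.1 (BALB came nearest, at 0.0887 to 0.333), so the numbers were not taken as pairing the libraries. The libraries that correlated best with their own number were 6 of 6 in SPRET, 4 of 6 in BALB, 2 of 6 in C57 and 0 of 6 in NOD, a hint from the data and not from the design. With a replicate block, 5 responses were higher in SPRET than in C57 over the time course in place of 3, 1 F1 difference was higher in place of 5, and the other counts stayed within 1.5 times.

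F1 alleles carry no depth, and their calls need both basal libraries.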

Other observations

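C4b was not alone in its 3 Egr2MKO libraries. In all, 6 genes including C4b were at 1 TPM or more in Egr2MKO 1 h replicate 1 and in both Egr2MKO 6 h libraries and over 2 times the highest of the other 13 libraries, a search made after the C4b values were seen. Alox15, a lipoxygenase of IL-4-treated and peritoneal macrophages, was at 37.6, 19.6 and 80.3 TPM in these libraries and at no more than 0.892 TPM elsewhere. Serpinb2 was at 7.32, 9.88 and 74.4 TPM (no more than 1.96 TPM elsewhere), Lrg1 at 5.13, 4.34 and 18.9 TPM (0.547 TPM), Ptgis at 4.34, 2.10 and 9.76 TPM (0.424 TPM) and Fscn1 at 2.84, 2.75 and 3.83 TPM (0.580 TPM). The values are a description of 3 libraries.

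Other complement genes had allele differences in basal C57 x SPRET cells. The SPRET allele was the higher for Cr2 (-2.19, C57 minus SPRET), Clu (-2.08), Cd59a (-1.59) and Serping1 (-1.51), and the C57 allele for Fcna (2.07), each at a limma adjusted p of 0.020. Between the basal parental strains of the 5 strain table, SPRET minus C57 was 6.53 for Clu, 2.79 for Cr2 and -2.99 for Fcna. These allele differences were not refitted without single libraries.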
